A study of Rattus norvegicus with 80 samples.

Results

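Immediate early genes are switched on within minutes of growth factor signalling, without new protein synthesis, and ERK, the last kinase of the Ras, RAF and MEK cascade, is one of their main inputs. The 8 genes described here were chosen as a list of such genes: Fos, Egr1, Jun, Junb, Dusp1, Myc, Atf3 and Fosl1. They are 8 of the 32883 Ensembl rat gene identifiers in the count table (ENSRNOG00000008015 for Fos, ENSRNOG00000019422 for Egr1, ENSRNOG00000026293 for Jun, ENSRNOG00000042838 for Junb, ENSRNOG00000003977 for Dusp1, ENSRNOG00000004500 for Myc, ENSRNOG00000003745 for Atf3 and ENSRNOG00000020552 for Fosl1), and all 8 were found. They were listed by name and not by a cut on their levels, though earlier results of these data were known when they were chosen.

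The study sequenced RNA from wildtype rats and from 3 lines of rats with a mutated Nf1 gene, which the labels call IF, PS and IFPS. Nf1 encodes neurofibromin, a GTPase-activating protein that turns Ras off, so ERK signalling is the classical pathway it restrains. There were 21 whole mammary pads (6 of wildtype, 6 of PS, 6 of IFPS, 3 of IF) and 23 tumors (9 of PS, 9 of IFPS, 5 of IF). Fibroblasts, adipocytes and mammary epithelial cells (MECs) had 3 samples of wildtype and of each line. The series calls the normal cell types flow sorted, and the protocols describe the MECs and fibroblasts as plated and grown close to confluency before RNA was taken. RNA of pads, tumors and mature adipocytes was taken with Trizol, and that of the cultured cells with a column kit, so tissue, culture and extraction cannot be told apart when tissues are compared. The labels used here give neither the Nf1 alleles behind the line names nor age, treatment or whether 2 samples share an animal, so p-values measure the spread between these samples, which may be technical. Pads carry title numbers 1 to 12 (first set, all lines) and 13 to 21 (second set, wildtype, PS and IFPS).

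Fos, Jun, Junb and Fosl1 encode subunits of AP-1, a dimer of a Fos and a Jun family protein that binds DNA. Egr1 encodes a zinc finger transcription factor, Atf3 a stress-inducible factor of the ATF and CREB family, and Myc the growth-promoting factor c-Myc. Dusp1 encodes a phosphatase that removes the activating phosphates from MAP kinases, and so is a negative feedback gene of the same cascade. A pair of DNA elements is known to drive such genes: the CArG box, bound by serum response factor together with ERK-phosphorylated ternary complex factors, and the cyclic AMP response element (CRE), bound by CREB and ATF proteins.

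Of the 8 genes, 4 had a promoter in the RefSeq table for build GRCr8, and Fos, Jun, Myc and Atf3 did not. The 4 promoters found, of Egr1, Dusp1, Junb and Fosl1, are shown. Each run is the 250 bases before the start of the gene, 5′ to 3′, on the plus strand, from chr18:26736828-26737077 for Egr1, chr10:17184603-17184852 for Dusp1, chr19:40080876-40081125 for Junb and chr1:212183635-212183884 for Fosl1, and capitals mark the matches described after them.
Egr1: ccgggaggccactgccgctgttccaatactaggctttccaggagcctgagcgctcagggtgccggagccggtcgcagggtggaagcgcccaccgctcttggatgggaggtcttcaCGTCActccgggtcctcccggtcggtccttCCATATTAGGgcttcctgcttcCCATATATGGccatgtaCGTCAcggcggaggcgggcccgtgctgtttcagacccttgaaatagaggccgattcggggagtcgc
Dusp1: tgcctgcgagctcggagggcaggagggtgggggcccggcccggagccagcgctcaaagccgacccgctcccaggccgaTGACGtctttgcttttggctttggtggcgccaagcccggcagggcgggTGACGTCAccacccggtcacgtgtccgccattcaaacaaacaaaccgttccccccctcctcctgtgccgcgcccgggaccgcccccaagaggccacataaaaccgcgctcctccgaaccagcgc
Junb: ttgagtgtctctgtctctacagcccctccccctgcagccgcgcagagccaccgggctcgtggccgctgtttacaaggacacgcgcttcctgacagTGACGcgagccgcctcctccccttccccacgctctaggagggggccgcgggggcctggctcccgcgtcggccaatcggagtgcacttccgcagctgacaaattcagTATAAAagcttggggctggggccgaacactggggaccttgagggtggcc
Fosl1: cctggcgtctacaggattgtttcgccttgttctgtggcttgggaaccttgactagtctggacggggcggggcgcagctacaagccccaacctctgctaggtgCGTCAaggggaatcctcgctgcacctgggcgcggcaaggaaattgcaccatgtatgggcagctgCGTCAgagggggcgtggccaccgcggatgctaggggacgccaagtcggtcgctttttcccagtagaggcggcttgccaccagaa

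Matches were searched on both strands over 300 bases, from 250 before to 50 after the start. The CArG box was searched as CC, 6 bases of A or T, then GG, and the CRE as TGACGTCA. The CRE core, TGACG, lies inside the CRE, and the AP-1 site was searched as TGANTCA and a TATA box as TATAAA. Egr1 held 2 CArG boxes, CCATATTAGG at -105 to -96 and CCATATATGG at -83 to -74 from the start, and 1.637% of 33469 rat promoters of the same length held any. Dusp1 held the full CRE, TGACGTCA, at -124 to -117, which 1.829% of promoters held. The CRE core was found in 4 of the 4 promoters, against 21.2% of all promoters. An AP-1 site was in 0 of the 4 and in 7.329% of all, and Junb held a TATA box at -49 to -44, as 14.22% of all did. These are matches of letters only, and no binding was measured.

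Levels are given as CPM, a gene's count relative to the library's total as scaled by edgeR's TMM. Genes differ in length, which was not at hand, so levels are compared between samples and not between genes. Library totals were 17344717 to 37293141 counts with a median of 26277354, and the genes were counted well in most groups: outside Fosl1 the lowest count was 53, for Atf3 in a wildtype pad. IFPS tumors 6, 8 and 9 stood apart from the other IFPS tumors by low levels of genes enriched in MECs. The 3 IF adipocyte libraries stood apart from the other adipocytes by high levels of genes enriched in MECs and fibroblasts. Results that rest on these libraries are given below with those values.

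Adipocytes carried the highest levels of most of these genes, and the IF adipocytes the highest of all. IF adipocytes were the top group for 7 of the 8 genes, and Fosl1 was highest in wildtype adipocytes. From the lowest to the highest group mean the range was 54.1-fold for Fos, 8.77-fold for Egr1, 35.2-fold for Jun, 17.9-fold for Junb, 94.4-fold for Dusp1, 2.81-fold for Myc and 120.4-fold for Atf3. Myc was thus the flattest, and differences between groups made up 49.4% of the variance of its log2 CPM over the 80 libraries, against 78.8% to 96.3% for the other 7 genes. The lowest group was IF fibroblasts for Fos, Egr1, Jun and Myc, IF tumors for Dusp1, IF pads for Junb, wildtype pads for Atf3 and IFPS pads for Fosl1. With the 19 groups put in order, most neighbours overlapped in their libraries: 14 of 18 neighbouring pairs for Fos and Junb, 15 for Jun, Dusp1 and Fosl1, 16 for Egr1 and Atf3, and all 18 for Myc.

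**Figure D1:**
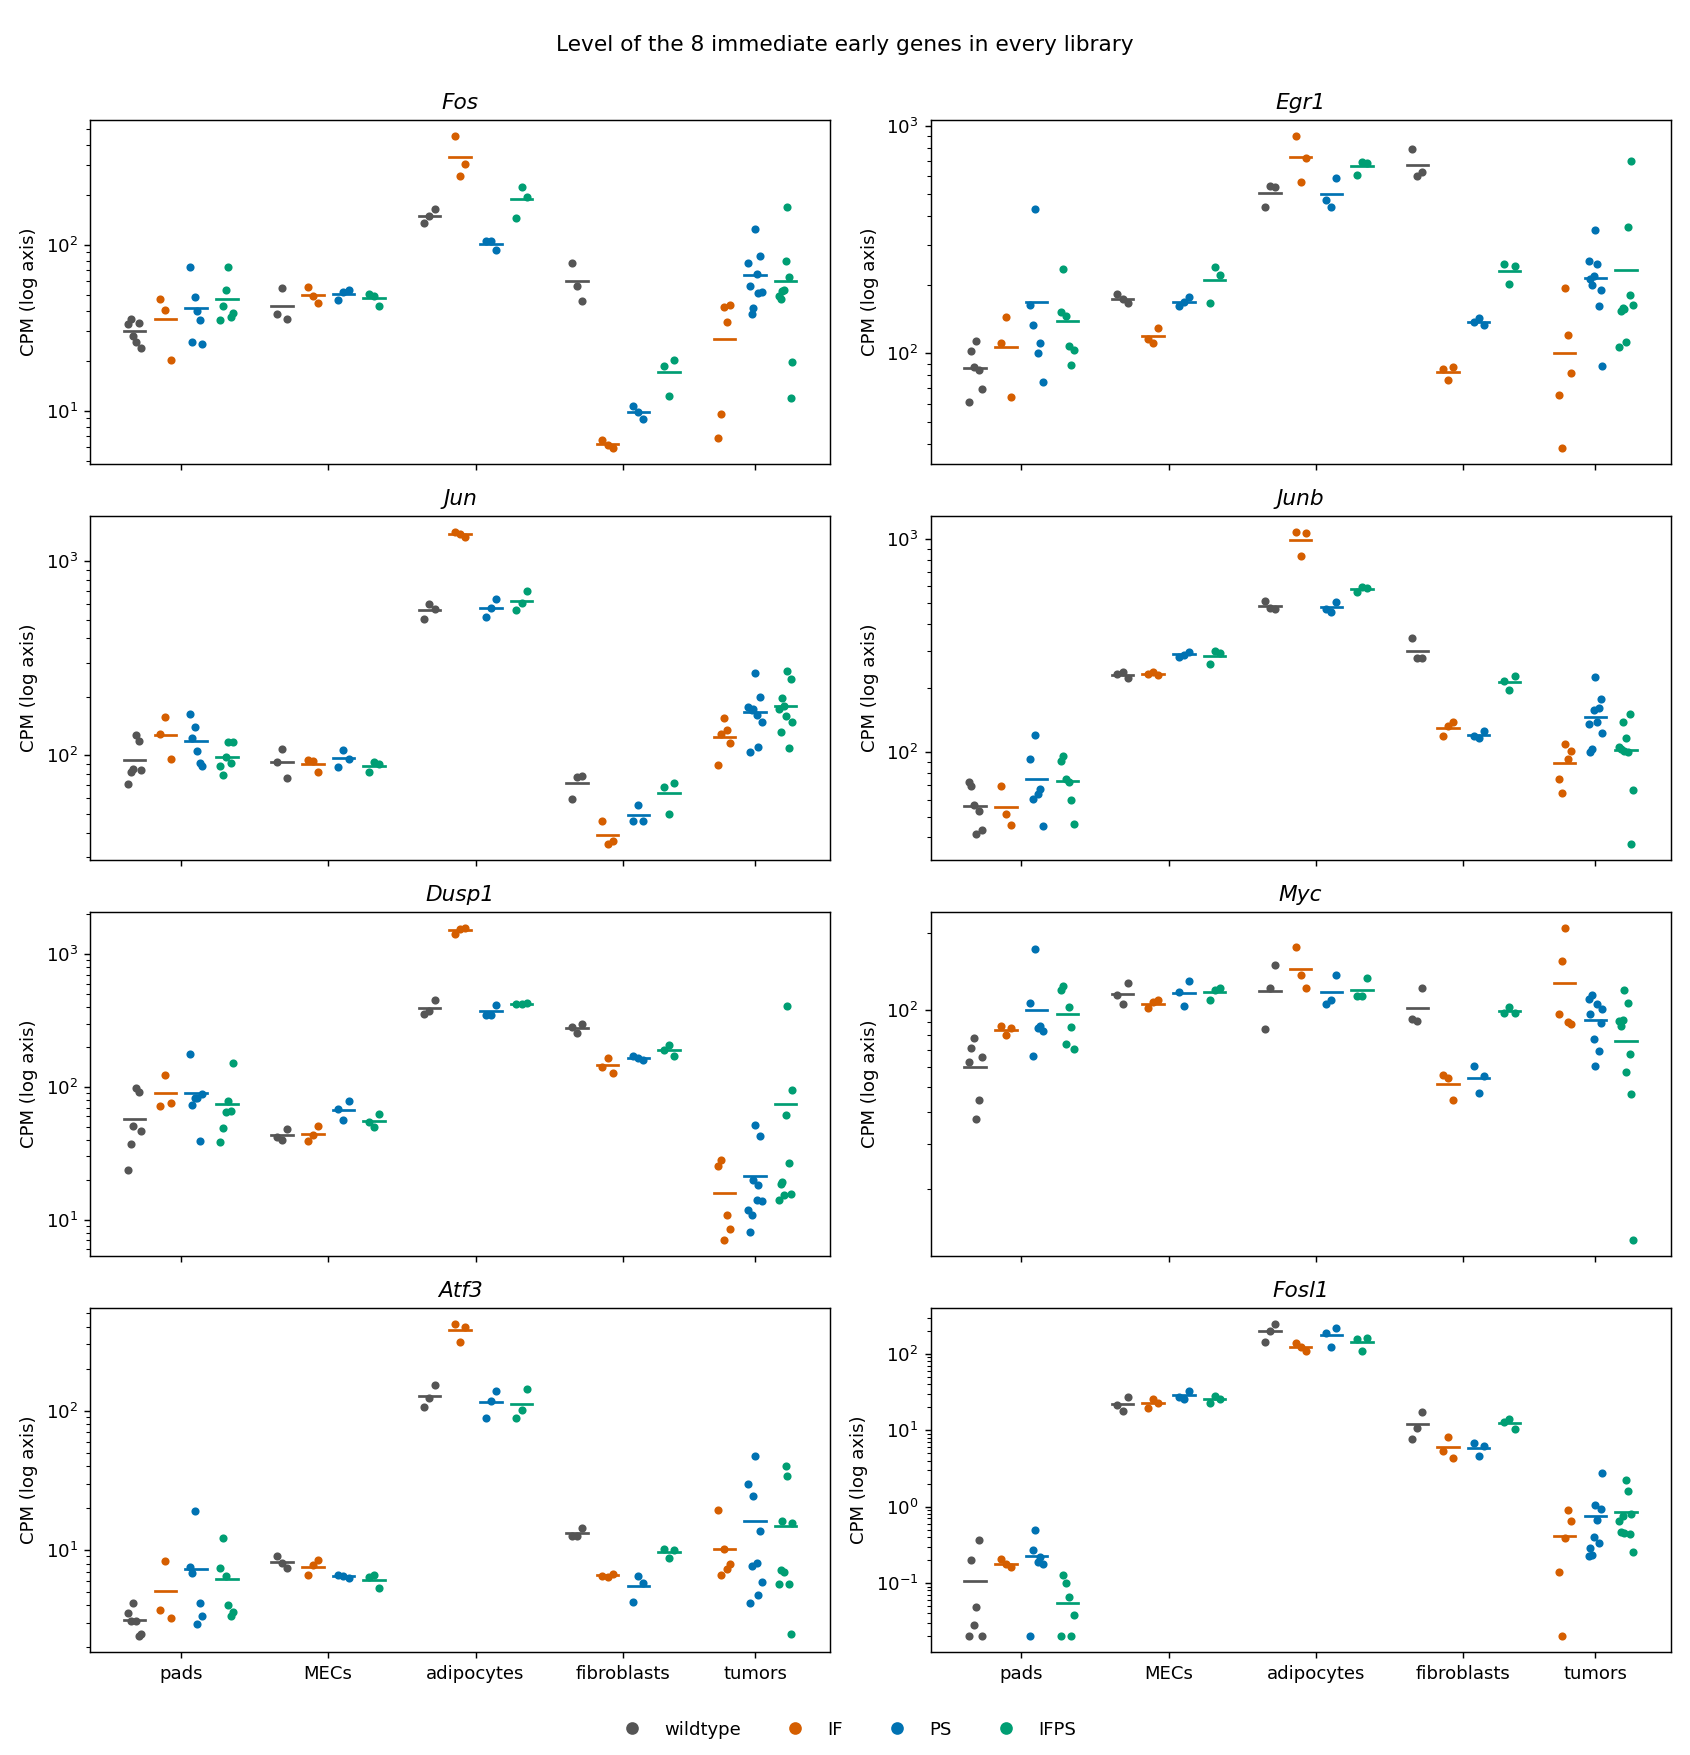
CPM of the 8 genes (log axis) in all 80 libraries, by tissue and line; each point is 1 library, lines are group means, and a level of 0 is drawn at 0.02. Fos and Egr1 are low in the fibroblasts of all mutated lines, and IF adipocytes stand above the other adipocytes for Fos, Jun, Junb, Dusp1 and Atf3.

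Among wildtype tissues, compared in the pads numbered 1 to 3 and the 3 cell types, 38 of the 48 tests (8 genes, 6 pairs of tissues) had an adjusted p under 0.05, a share to be read against 56% to 76.6% of all genes tested in the same pairs. All 8 genes were higher in adipocytes than in pads (76.6% of all genes called, 35.7% in that direction). In adipocytes 7 were higher than in MECs (70.4% called, 34.6% in that direction). Myc was at 118 ± 33 CPM (SD, n = 3) in adipocytes and 116 ± 11 in MECs (SD, n = 3). Fibroblasts exceeded pads for 7 genes, all but Jun (73.8% called, 36.9% in that direction). MECs exceeded pads for 5 (71.9% called, 36.4% in that direction): Egr1, Junb, Myc, Atf3 and Fosl1. Against fibroblasts, adipocytes were higher for 5 genes and lower for Egr1 (67.1% called, 33.5% higher and 33.7% lower). MECs were lower than fibroblasts for Egr1, Junb, Dusp1 and Atf3 and higher for Fosl1 (56% called, 28.6% lower and 27.5% higher). Jun, higher in MECs than in fibroblasts by 0.34 on the log2 scale, did not pass (adjusted p = 0.0546) but did with the title number as a replicate block (0.0264). With plain library totals, which moved the median gene by 0.63 (log2) between pads and adipocytes and by 0.61 between pads and fibroblasts, 36 of the 48 calls were made, and those of Fos (adjusted p = 0.155) and Myc (0.998) between pads and fibroblasts and of Myc between pads and adipocytes (0.436) were lost, as were those of Junb (0.921) and Atf3 (0.109) between MECs and fibroblasts, while 3 others were gained. Call by call, Egr1 in adipocytes against fibroblasts was weak (log2 fold change -0.44, SE 0.17, adjusted p = 0.0416, and 0.0542 with the title number as a replicate block) and was kept in 2 of 12 fits that left out 1 library. Fosl1 in MECs against fibroblasts was kept in 7 of 12 (adjusted p up to 0.138), and Myc in pads against fibroblasts was lost without wildtype pad 1 (0.051) or fibroblast 3 (0.117).

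Fosl1 encodes FRA-1, a Fos family protein without the strong activation domain of c-Fos, and its levels separated the cell types from whole tissue. It reached 197 ± 53 CPM (SD, n = 3) in wildtype adipocytes, 22.2 ± 4.9 (SD, n = 3) in wildtype MECs and 12 ± 5 (SD, n = 3) in wildtype fibroblasts. In the 21 pads it was at most 0.494 CPM, 14 counts, and in the 23 tumors at most 2.74 CPM, 91 counts. Pooled over its 6 libraries the wildtype pad gave 17 counts, or 0.0973 CPM with an exact Poisson 95% interval of 0.0567 to 0.156 for counting error only. Of the 80 libraries 6 were at 0, 5 pads and 1 IF tumor. A pad holds all 3 cell types, so the low pad values stand beside far higher values in each isolated type. The same order, pads below the isolated cells, held for the wildtype means of Fos, Egr1, Junb, Myc and Atf3.

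Fibroblasts of the mutated lines had less of these transcripts than wildtype fibroblasts, most of all Fos and Egr1. In IF fibroblasts 7 of 8 genes fell, against 7.66% of 13879 genes called in either direction, 4.29% lower and 3.37% higher. In PS fibroblasts 8 of 8 fell, against 21.7% called and 11.2% called lower. In IFPS fibroblasts 2 of 8 fell, Fos and Egr1, where 9 genes in all were called, 0.0648% of those tested and all 9 lower. DESeq2 called 5 of 8 in IFPS, these 2 and Junb (adjusted p = 0.00121), Dusp1 (0.000108) and Atf3 (0.0441), where it called 6.09% of all genes. Over the 8 genes the median log2 fold change was -0.996 (IF), -1.16 (PS) and -0.48 (IFPS), and over all genes tested it was 0.00 each time. These 3 comparisons share the 3 wildtype libraries, so they do not count as separate evidence.

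Egr1 was at 789, 602 and 622 CPM in the wildtype fibroblasts, 85.7, 76.4 and 87.0 in IF, 136, 142 and 134 in PS, and 247, 202 and 241 in IFPS. No 2 of the 4 lines overlapped, and from low to high the order was IF, PS, IFPS, wildtype. The log2 fold change against wildtype was -3.01 (SE 0.12, adjusted p = 4.82e-07) in IF, -2.30 (SE 0.12, adjusted p = 3.4e-06) in PS and -1.55 (SE 0.11, adjusted p = 0.000262) in IFPS. Egr1 had the smallest p-value of all 13879 genes in each of the 3 comparisons. The steps between the mutated lines passed too: PS over IF by 0.71 (SE 0.11, adjusted p = 0.00888), IFPS over IF by 1.45 (SE 0.11, adjusted p = 0.00016) and IFPS over PS by 0.74 (SE 0.11, adjusted p = 0.00064), all on the log2 scale.

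Fos was at 77.5, 56.4 and 46.0 CPM in wildtype fibroblasts, 6.67, 6.18 and 5.93 in IF, 10.6, 9.81 and 8.90 in PS, and 18.6, 12.3 and 20.3 in IFPS. Again no 2 lines overlapped, and their order was that of Egr1. Against wildtype the log2 fold change was -3.25 (SE 0.22, adjusted p = 3.56e-05) in IF, -2.63 (SE 0.21, adjusted p = 0.000119) in PS and -1.83 (SE 0.21, adjusted p = 0.00969) in IFPS. Fos ranked 5, 8 and 3 by p-value among all genes. IFPS exceeded IF (1.42, SE 0.22, adjusted p = 0.00141) and PS (0.80, SE 0.21, adjusted p = 0.0116), and PS over IF did not pass (0.63, SE 0.22, adjusted p = 0.13). Both IFPS calls against wildtype were lost when only the 6 libraries compared were fitted (adjusted p = 0.0799 for Egr1 and 0.222 for Fos), and the call of Fos also without IFPS fibroblast replicate 1 (0.0507).

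The Jun partners of AP-1 moved less. Junb was at 344, 278 and 276 CPM in wildtype, 120, 133 and 139 in IF, 119, 116 and 126 in PS, and 216, 196 and 228 in IFPS fibroblasts. Wildtype stood above all mutated libraries, and IF and PS overlapped. It fell by 1.19 (SE 0.10, adjusted p = 0.000214) in IF and by 1.33 (SE 0.10, adjusted p = 7.03e-05) in PS on the log2 scale, and its value in IFPS was -0.50 (SE 0.10, adjusted p = 0.0843, and 0.0114 without wildtype fibroblast replicate 3). Jun was at 59.6, 77.5 and 78.3 CPM in wildtype, 45.9, 34.8 and 36.3 in IF, 46.0, 55.5 and 45.8 in PS, and 69.0, 50.0 and 71.8 in IFPS. Jun fell in IF (-0.87, SE 0.16, adjusted p = 0.0172) and PS (-0.56, SE 0.16, adjusted p = 0.0303) and overlapped wildtype in IFPS. The calls of Jun were lost when single libraries of the groups compared were left out: 3 of them in IF (wildtype 3 and IF 2 and 3, adjusted p up to 0.0631) and 4 in PS (wildtype 2 and 3 and PS 1 and 3, up to 0.0972).

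Fosl1, the other Fos family member, was at 12 ± 5 CPM (SD, n = 3) in wildtype, 12.4 ± 1.8 in IFPS, 5.99 ± 2.0 in IF and 5.87 ± 1.09 in PS fibroblasts. Its fall in PS passed (-1.04, SE 0.29, adjusted p = 0.0295) but not without wildtype replicate 3 or PS replicate 2 or 3 (up to 0.124), and the value in IF was -0.99 (SE 0.30, adjusted p = 0.0634, and 0.0242 without wildtype replicate 1). The libraries of wildtype, 7.74, 10.8 and 17.4 CPM, were the most spread of the 4 lines.

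Myc and Atf3 fell in IF and PS fibroblasts too. Myc was at 102 ± 17 CPM (SD, n = 3) in wildtype and 99.2 ± 3.3 in IFPS, against 51.5 ± 6.1 in IF and 54.5 ± 6.7 in PS. The log2 fold change of Myc was -0.97 (SE 0.13, adjusted p = 0.00442) in IF, -0.91 (SE 0.13, adjusted p = 0.00219) in PS and -0.04 (SE 0.12, adjusted p = 0.872) in IFPS. Atf3 was at 12.6, 12.6 and 14.3 CPM in wildtype, 6.52, 6.44 and 6.73 in IF, 4.21, 6.46 and 5.77 in PS, and 10.2, 8.74 and 10.1 in IFPS. Its log2 fold change was -0.996 (SE 0.14, adjusted p = 0.00756) in IF, -1.27 (SE 0.14, adjusted p = 0.00102) in PS and -0.46 (SE 0.14, adjusted p = 0.117) in IFPS.

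Dusp1, the feedback phosphatase, fell by less than Egr1 and Fos. It was at 284, 256 and 295 CPM in wildtype fibroblasts, 141, 166 and 128 in IF, 172, 164 and 159 in PS, and 190, 207 and 170 in IFPS. Every mutated library lay below every wildtype library. The log2 fold change was -0.93 (SE 0.10, adjusted p = 0.00124) in IF, -0.76 (SE 0.10, adjusted p = 0.00191) in PS and -0.57 (SE 0.10, adjusted p = 0.0795) in IFPS. The last passed without wildtype replicate 3 (0.0169) or IFPS replicate 2 (0.0343).

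**Figure D2:**
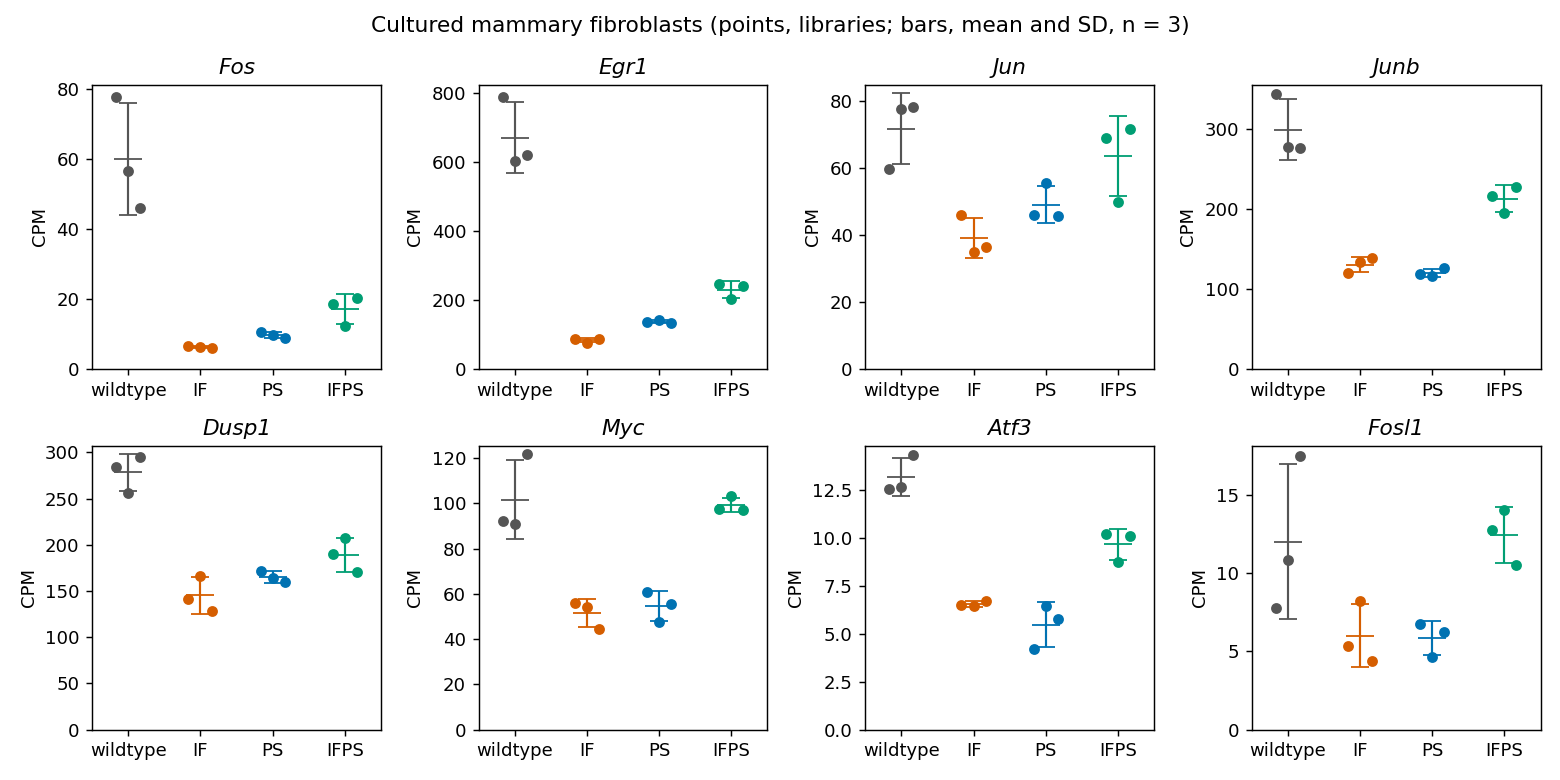
CPM of the 8 genes in fibroblasts of wildtype and the 3 mutated lines; points are libraries, bars the mean and SD of 3. For Egr1 and Fos the 4 lines do not overlap, and for Myc and Fosl1 the IFPS libraries lie at the wildtype level.

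IFPS fibroblasts were compared with the other 2 mutated lines directly. All 8 genes were higher in IFPS than in IF, against 31.4% of genes called and 15.7% called higher, and 6 of 8 were higher in IFPS than in PS (40.5% called, 20.4% higher). The other 2, Jun and Dusp1, were higher by 0.37 (SE 0.16, adjusted p = 0.0808) and 0.20 (SE 0.10, adjusted p = 0.126), and both passed with plain library totals, which moved the median gene by 0.13 (0.0252 and 0.0227). Between PS and IF, 1 gene passed, Egr1, against 4.78% of all (2.31% higher, 2.47% lower). Against IF the log2 differences ran from 0.37 for Dusp1 (SE 0.10, adjusted p = 0.0168) to 1.45 for Egr1, with Myc at 0.93 (SE 0.13, adjusted p = 0.000848). Of these, Dusp1, Atf3 and Fosl1 lost their call when a single library of IFPS or IF was left out (adjusted p up to 0.0842), as did Fosl1 against PS without PS replicate 2 (0.0527).

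The purity of the fibroblast cultures could not be read from named markers. Sets of genes at least 4-fold higher in 1 wildtype cell type than in both others were used instead, as the mean log2 CPM of 961 MEC-enriched, 1196 adipocyte-enriched and 331 fibroblast-enriched genes. In fibroblasts the fibroblast-enriched score (SD, n = 3) was 4.21 ± 0.11 for wildtype, 3.88 ± 0.10 for IFPS, 4.24 ± 0.04 for IF and 4.07 ± 0.04 for PS. The corresponding MEC-enriched scores were -1.09 ± 0.15 (wildtype), -0.59 ± 0.29 (IFPS), -0.94 ± 0.07 (IF) and -0.97 ± 0.22 (PS). IFPS fibroblasts thus had the lowest fibroblast-enriched and the highest MEC-enriched score of the 4 lines, and what part these have in the higher IFPS levels was not tested.

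**Figure D3:**
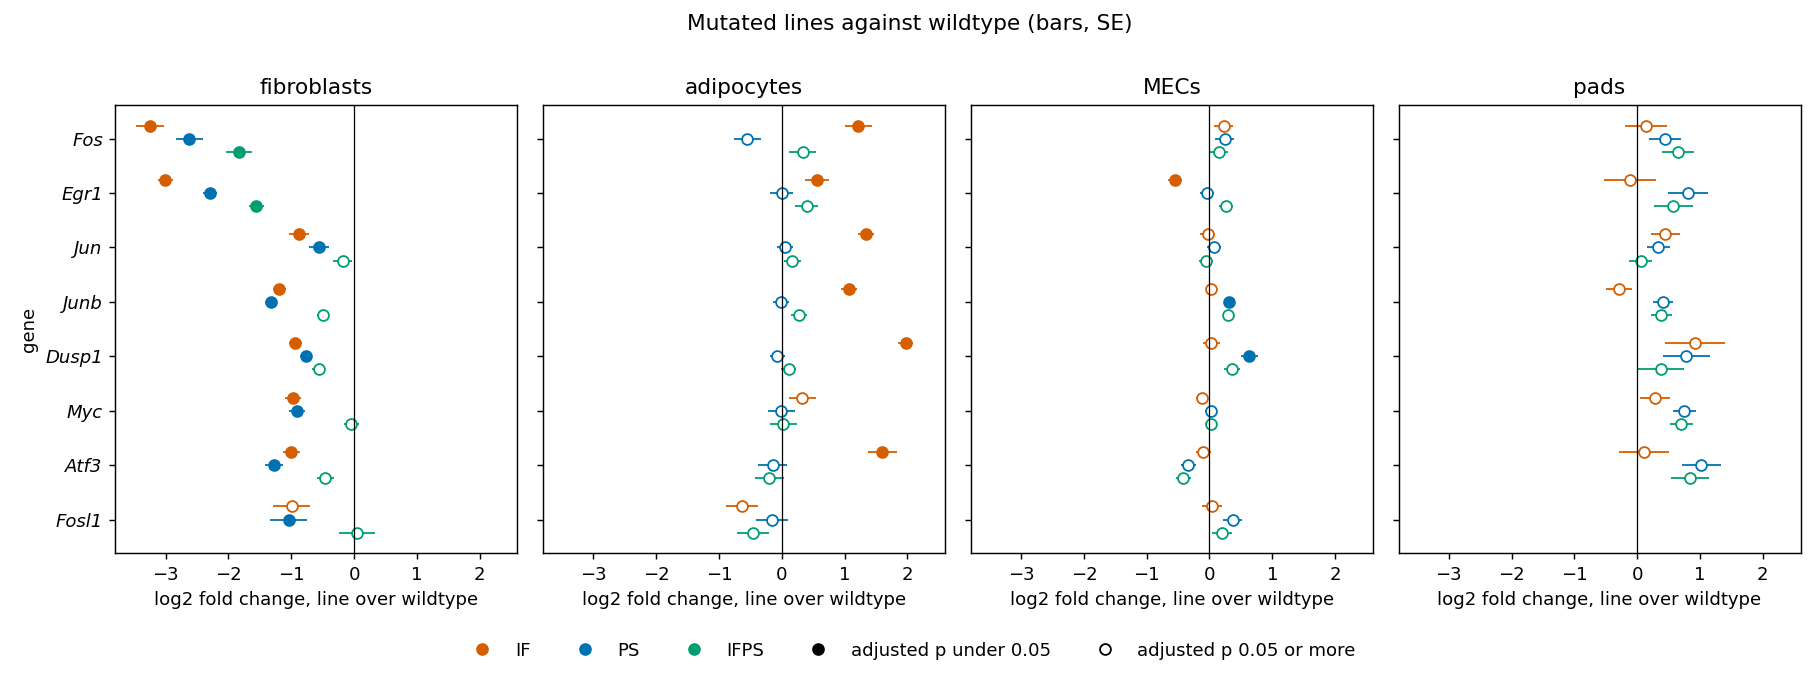
Log2 fold change of each mutated line over wildtype (x axis) for the 8 genes (y axis) in fibroblasts, adipocytes, MECs and pads, with SE; filled points have an adjusted p under 0.05. Filled points lie left of 0 in fibroblasts and right of 0 in IF adipocytes, and pads have none; Fosl1 was not tested in pads.

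In adipocytes the direction was the opposite, and only IF differed from wildtype. In IF adipocytes 6 of 8 genes were higher than in wildtype, beside 48.2% of 14304 genes called in either direction and 26.5% called higher. In PS adipocytes 0 of 8 passed edgeR's test (0.378% of all genes called, 0.266% lower) and in IFPS adipocytes 0 of 8 (0% called). DESeq2 also called 0 in each. In each 1 gene had an unadjusted p under 0.05, beside 1680 (PS) and 927 (IFPS) of all 14304. IF exceeded PS for 6 genes (52.7% called, 27.9% with PS lower and 24.8% with PS higher) and IFPS for 5 (53% called, 28.3% with IFPS lower and 24.6% with IFPS higher). IFPS against PS gave 0 calls in edgeR (0.028%, 0.00699% higher) and 1 in DESeq2, Fos (0.0291), whose share of all genes called is not given for adipocytes. In edgeR 2 genes had an unadjusted p under 0.05 for IFPS against PS, beside 832 of all 14304. The median log2 difference of the 8 genes between IF and wildtype was 1.14, and that of all genes 0.01. With a background this high, the number of calls sets the 8 genes little apart from other genes.

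Dusp1 showed the largest step. It was at 1413, 1537 and 1576 CPM in IF adipocytes, 356, 371 and 452 in wildtype, 349, 350.4 and 412 in PS, and 417, 421 and 427 in IFPS. All IF libraries lay far above the 9 others. The log2 fold change was 1.97 (SE 0.12, adjusted p = 9.13e-06), and Dusp1 ranked 11 by p-value of 14304 genes.

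Of the AP-1 genes Jun, Junb and Fos were higher in IF. Jun was at 1416, 1373 and 1332 CPM in IF and 502, 605 and 563 in wildtype adipocytes, a log2 fold change of 1.34 (SE 0.13, adjusted p = 8.64e-05). Junb was at 1083, 828.9 and 1072 CPM in IF and 515, 476 and 472 in wildtype, a log2 fold change of 1.07 (SE 0.12, adjusted p = 0.000185). For both genes no IF library overlapped another line. Fos was at 454, 258 and 304 CPM in IF, 136, 149 and 164 in wildtype, 106, 106 and 92.7 in PS, and 145, 223 and 193 in IFPS, a log2 fold change of IF over wildtype of 1.22 (SE 0.22, adjusted p = 0.00138). In PS Fos was lower than in wildtype by 0.55 on the log2 scale (fold change -0.55, SE 0.22), which did not pass (adjusted p = 0.34). Fosl1 went the other way from its AP-1 partners, at 142, 201 and 248 CPM in wildtype and 141, 123 and 108 in IF (log2 fold change -0.63, SE 0.26, adjusted p = 0.061, against 0.041 in DESeq2 and 0.021 without wildtype replicate 1).

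Atf3 was at 420, 313 and 401 CPM in IF against 106, 124 and 154 in wildtype adipocytes, with no overlap (log2 fold change 1.60, SE 0.23, adjusted p = 0.000528). Egr1 was at 903, 562 and 719 CPM in IF and 438, 543 and 535 in wildtype, closer together (0.57, SE 0.19, adjusted p = 0.0292). The call of Egr1 was lost with only these 2 groups in the fit (0.0951), with plain library totals (0.0871) and without any 1 of 5 libraries (all 3 of wildtype, and IF 1 and 3, up to 0.12). Myc did not pass (0.33, SE 0.21, adjusted p = 0.228), at 145 ± 28 CPM (SD, n = 3) in IF and 118 ± 33 in wildtype.

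IF adipocytes also differed in the sets enriched in other cell types. Their MEC-enriched score was 1.25, -0.61 and 1.07, against -1.85 to -1.08 in the other 9 adipocyte libraries, and their fibroblast-enriched score was 1.79, 1.14 and 1.69, against -0.34 to 0.20. The adipocyte-enriched score was 4.10 ± 0.35 (SD, n = 3) in IF and 4.05 ± 0.26 in wildtype. The MEC-enriched and fibroblast-enriched scores were thus higher in the same group as the 6 genes, and their part in these levels was not tested. IF adipocyte replicate 2, with the lowest MEC-enriched and fibroblast-enriched scores of the 3, was also the lowest of the 3 for Fos, Egr1, Junb and Atf3, and lay between the other 2 for Dusp1 and Jun.

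In cultured MECs the 8 genes differed little between lines. In IF MECs 1 gene of 8 passed, Egr1 lower (0.817% of 14688 genes called, 0.34% lower and 0.477% higher). In PS MECs 2 passed, Junb and Dusp1 higher (2.36% called, 1.41% higher), and in IFPS MECs 0 by edgeR (0.374%). In IFPS MECs 4 genes had an unadjusted p under 0.05, beside 1588 of all 14688. DESeq2 called 1 there, Junb (adjusted p = 0.000262, against 0.0512 in edgeR), and its share of all genes called is not given for MECs. Egr1 was at 183, 173 and 166 CPM in wildtype, 115, 111 and 129 in IF, 161, 168 and 177 in PS, and 166, 239 and 221 in IFPS. IF lay below all other lines. The fold change of IF over wildtype was -0.55 (log2, SE 0.11, adjusted p = 0.0494), which fell short with RLE size factors (0.0507), plain totals (0.0534), only the 2 groups in the fit (0.06) or any 1 of 10 of the 12 libraries left out (up to 0.16).

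Junb was at 232, 239 and 224 CPM in wildtype and 281, 287 and 295 in PS MECs, without overlap (log2 fold change 0.32, SE 0.06, adjusted p = 0.0217). Dusp1 was at 42.2, 40.1 and 48.4 CPM in wildtype and 68.5, 56.2 and 78.0 in PS, also without overlap (0.64, SE 0.13, adjusted p = 0.0322). Both calls were lost with only the 2 groups in the fit (0.076 and 0.113), and without wildtype replicate 1 or 3 or PS replicate 3 (up to 0.0869 for Junb and 0.129 for Dusp1). PS replicate 2 also decided the call of Junb, and PS replicate 1 and IF replicate 2 that of Dusp1. IFPS exceeded IF for 2 genes (0.742% called, 0.511% higher), Egr1 (0.81, SE 0.11, adjusted p = 0.0121) and Junb (0.28, SE 0.06, adjusted p = 0.0486), calls kept in 8 and 3 of 12 fits that left out 1 library. PS against IF gave 0 calls in edgeR (0.0681%, 0.0408% higher and 0.0272% lower) and 3 with an unadjusted p under 0.05. DESeq2, whose share of all genes called is not given here, called 3. IFPS against PS gave 0 in edgeR (0.0681%, 0.0204% higher and 0.0477% lower), 1 with an unadjusted p under 0.05 and 0 in DESeq2. Of all 14688 genes, 1558 (PS against IF) and 1541 (IFPS against PS) had an unadjusted p under 0.05. Fos, the gene with the deepest fall in fibroblasts, was at 42.8 ± 10.4 CPM (SD, n = 3) in wildtype MECs, 47.4 ± 4.1 in IFPS, 49.8 ± 5.7 in IF and 50.5 ± 3.8 in PS, and no MEC comparison of Fos passed. Without wildtype MEC replicate 2, the highest of its group at 54.8 CPM, Fos was called in IF (0.0469) and in PS (0.0372).

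The effect of a line was tested for a difference between pads, MECs, adipocytes and fibroblasts in 1 fit of the 57 normal libraries. For IF 7 of 8 genes passed (36.8% of 17126 genes), all but Fosl1 (adjusted p = 0.129). For PS 7 of 8 passed (9.36%), all but Jun (0.0739), and for IFPS 4 of 8 (1.56%): Fos, Egr1, Junb and Atf3. With the title number as a replicate block, Jun in PS (0.000576) and Fosl1 in IF (0.0462) passed as well, and Junb (0.0557) and Atf3 (0.0524) in IFPS no longer did. Fos had the smallest p-values of the 8 in IF (adjusted p = 3.54e-10) and in IFPS (0.000725). Fos was lower in fibroblasts of all 3 lines and higher in IF adipocytes, and in MECs and pads its values did not pass. The calls near the threshold were fragile: with 1 of the 57 libraries left out, those of Dusp1 and Fosl1 in PS were kept in 12 and 17 fits, and those of Junb and Atf3 in IFPS in 18 and 17.

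In whole pads none of the 7 genes tested passed in any line. Fosl1 was left out of that fit by the filter on low counts. edgeR called 0 of 7 in IF (0% of 16384 genes), PS (0.0061%) and IFPS (0%). At an unadjusted p under 0.05 were 0 genes in IF and 4 in PS (Egr1, Junb, Myc and Atf3). In IFPS there were 4 (Fos, Junb, Myc and Atf3), and in both lines each was higher than in wildtype. Of all 16384 genes, 306 (IF), 1679 (PS) and 1297 (IFPS) were under that cut. DESeq2 called 1, Myc in PS (adjusted p = 0.0373, against 0.298 in edgeR), and its share of all genes called is not given for pads. Myc had a median of 64.0 CPM in wildtype pads (37.7 to 77.6), 86.0 in PS (65.9 to 172) and 94.4 in IFPS (70.5 to 124), a log2 fold change of 0.75 (SE 0.19) in PS and 0.70 (SE 0.19, adjusted p = 0.515) in IFPS. PS and IFPS pads overlapped wildtype pads for every gene, and IF pads did for all but Myc (79.6 to 86.9 CPM, n = 3). Egr1 ran from 61.1 to 114 CPM in wildtype pads (median 85.7), from 75.0 to 429 in PS (median 122) and from 88.8 to 234 in IFPS (median 127). Fos had medians of 30.7 CPM in wildtype, 37.4 in PS and 40.9 in IFPS. A pad mixes cell types, so fewer cells of a type and less RNA per cell cannot be told apart there or in tumors.

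The 2 sets of pads differed for 2 of the 7 genes, against 2.9% of all genes. Second-set pads had less Junb (log2 -0.58, SE 0.13, adjusted p = 0.0221) and less Atf3 (-1.14, SE 0.25, adjusted p = 0.0173), and both calls held with any 1 of the 21 pads left out. Atf3 was at 11.2 ± 6.9 CPM (SD, n = 3) in first-set and 3.5 ± 0.6 in second-set PS pads, and at 8.72 ± 3.06 and 3.64 ± 0.34 in IFPS pads. In wildtype pads it was at 3.61 ± 0.55 and 2.67 ± 0.39. The genes differed in how PS pads stood to wildtype in the 2 sets. Egr1 was at 242 ± 163 CPM (SD, n = 3) in first-set PS pads against 83.6 ± 21.1 in wildtype, and at 95.3 ± 18.3 against 89.1 ± 22.4 in the second. Myc had a log2 fold change of 0.71 in the first set and 0.78 in the second, where it was at 84.9 ± 2.2 CPM (SD, n = 3) in PS and 49.2 ± 14.6 in wildtype. For Junb the 2 values were 0.46 and 0.35, for Atf3 1.63 and 0.39, for Fos 0.59 and 0.25, and for Dusp1 (1.56 and -0.15) and Jun (0.84 and -0.22) the sign changed. Fitted within either set alone, 0 of the 7 genes were called in any line measured there. The share of all genes called in those fits is not given, so this count does not set the 7 genes apart from others.

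The comparison of each line's tumors with its own pads gave 7 calls in 24 tests. In IF tumors 1 gene of 8 differed, Dusp1 lower (23.3% of 17227 genes called). In PS tumors 4 differed (38.9%), Jun, Junb and Fosl1 higher and Dusp1 lower, and in IFPS tumors 2, Jun and Fosl1 higher (27.9%). These shares are near those of all genes.

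Dusp1 was at 25.3, 28.1, 7.01, 10.9 and 8.60 CPM in the IF tumors and 72.5, 122 and 76.1 in the IF pads, with no overlap (log2 fold change -2.49, SE 0.82, adjusted p = 0.0277). It ran from 8.07 to 52.0 CPM (median 14.1) in PS tumors and from 39.2 to 177 (median 82.6) in PS pads, which overlapped slightly (-2.10, SE 0.60, adjusted p = 0.00635). In IFPS tumors it ran from 14.1 to 405 CPM (median 19.3) against 38.7 to 151 (median 65.1) in pads, and the log2 fold change was -0.02 (SE 0.60, adjusted p = 0.987). That value rested on IFPS tumor 6: without it Dusp1 was called lower (adjusted p = 0.0438). The IF call was lost without IF pad 2 or 3 or IF tumor 3, 4 or 5 (up to 0.0999).

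IFPS tumors 6, 8 and 9 had MEC-enriched scores of 0.65, -0.41 and -1.12, against 2.63 to 2.81 in the other 6 IFPS tumors and 1.85 to 2.90 in the IF and PS tumors, and tumor 6 had an adipocyte-enriched score of 3.71, against 1.17 to 2.80 in the other IFPS tumors. Tumors 6 and 9 had the 2 highest values of Dusp1 in the group, 405 and 95.6 CPM. Tumor 8 was at 15.7 CPM, below the group median of 19.3. Without these 3 tumors, a choice made after seeing the scores, Dusp1 was lower in IFPS tumors than in pads by 1.52 (log2 fold change -1.52, adjusted p = 0.00761), Junb was higher (0.71, adjusted p = 0.00601), Jun (0.68, adjusted p = 0.00485) and Fosl1 (3.82, adjusted p = 0.000329) stayed called, and Junb was also called in IF tumors (0.70, adjusted p = 0.0387). In total 10 of 24 tests then passed, against 7 with all tumors, and the shares of all genes called also rose, to 41.2% (IF), 52.1% (PS) and 49.6% (IFPS). Pads had higher adipocyte-enriched scores (2.72 to 3.51) and fibroblast-enriched scores (1.96 to 2.43) than most tumors (1.11 to 3.71 and 0.38 to 1.97), and their part in the differences was not tested.

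Of the AP-1 genes, Jun had medians of 172 CPM in PS tumors (104 to 266), 173 in IFPS tumors (108 to 270.4) and 128 in IF tumors (89.1 to 156), against 114 in PS pads (87.7 to 164) and 94.4 in IFPS pads (79.4 to 118). It rose by 0.49 (SE 0.19, adjusted p = 0.043) in PS and by 0.84 (SE 0.19, adjusted p = 0.00199) in IFPS on the log2 scale, and its value in IF was -0.03 (SE 0.26, adjusted p = 0.954). Junb had a median of 139 CPM in PS tumors (100.2 to 226) and 65.7 in PS pads (45.2 to 120), a log2 fold change of 0.95 (SE 0.24, adjusted p = 0.00233). The pad sets mattered here. With first-set pads alone Jun (0.555), Junb (0.112) and Fosl1 (0.272) were not called in PS tumors, and with second-set pads alone Dusp1 (0.113) and Fosl1 (0.127) were not. In IFPS, Jun was called with the first set (0.0179) and not with the second (0.0698), and Fosl1 with the second (0.016) and not with the first (0.0594). The PS call of Jun was also lost without any 1 of PS pads 2, 4, 5 and 6 or PS tumors 5 and 8 (up to 0.109).

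Fosl1 remained rare in tumors. Pooled counts gave 0.894 CPM in IFPS tumors (251 counts, exact Poisson 95% interval 0.787 to 1.01), 0.814 in PS tumors (203 counts, 0.706 to 0.934) and 0.408 in IF tumors (48 counts, 0.301 to 0.541). In pads they gave 0.0555 CPM in IFPS (10 counts, 0.0266 to 0.102), 0.23 in PS (41 counts, 0.165 to 0.312) and 0.182 in IF (16 counts, 0.104 to 0.296). The intervals cover counting error only and leave out the spread between libraries. PS tumor 9 alone gave 91 of the 203 counts, and IFPS tumor 5 gave 86 of the 251. IFPS tumors were higher than IFPS pads by 3.84 (log2, SE 0.80, adjusted p = 0.000838), and PS tumors than PS pads by 1.72 (SE 0.69, adjusted p = 0.0466, lost when any 1 of 9 libraries was left out). With so few counts in pads, these fold changes depend on the prior count.

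Fos, Egr1, Myc and Atf3 did not pass in any tumor comparison with pads. Atf3 in PS tumors (adjusted p = 0.118) passed without PS pad 3 (0.0296), the pad with the most Atf3, and Junb in IFPS tumors (0.132) without IFPS tumor 8 (0.0336). Fos ran from 6.85 to 43.1 CPM in IF tumors (median 34.1), from 38.3 to 125 in PS tumors (median 56.3) and from 11.9 to 169 in IFPS tumors (median 52.4). Egr1 had medians of 82.2 CPM in IF, 212 in PS and 158 in IFPS tumors, and its highest value was 698 in IFPS tumor 8. The tumor effect did not differ between lines for any of the 8 genes. edgeR and DESeq2 gave 0 calls in each of the 3 tests (0.36%, 0.464% and 0% of all genes in edgeR). An unadjusted p under 0.05 was reached by 0, 3 and 2 of the 8 genes, and by 1653, 2827 and 2364 of all 17227.

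**Figure D4:**
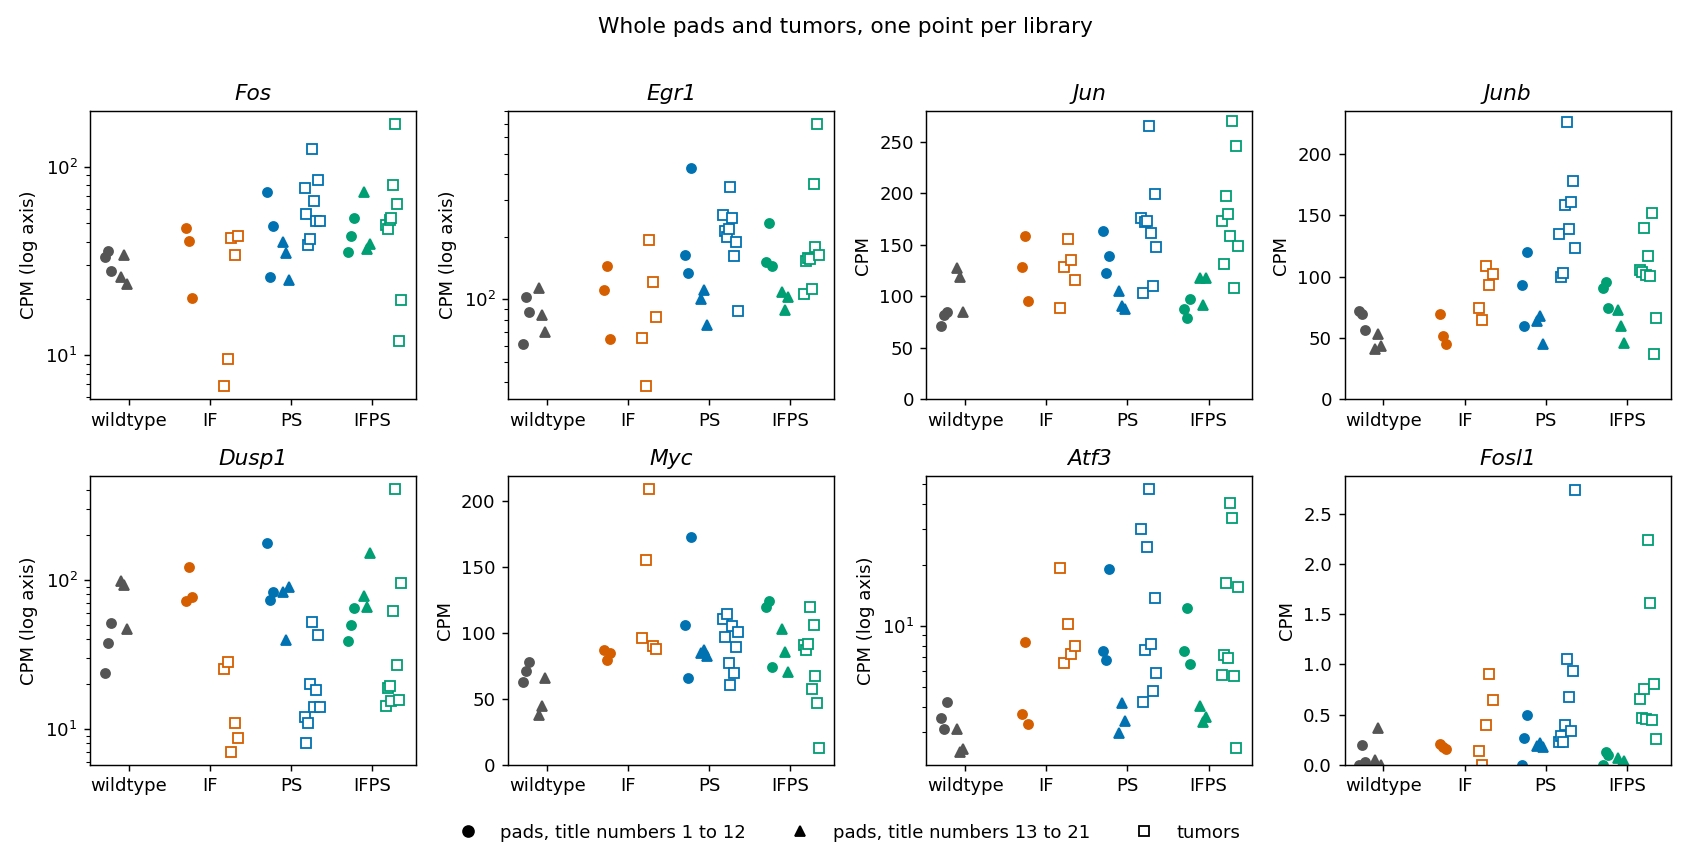
CPM of the 8 genes in each pad and tumor by line, on a log axis for Fos, Egr1, Dusp1 and Atf3 and a linear one for the rest; filled circles and triangles are pads of the first and second set, open squares tumors. Dusp1 lies lower in most tumors than in pads, and Atf3 and Junb lie lower in second-set pads.

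Tumors of the 3 lines were also compared with each other. edgeR called 0 of 8 genes for PS against IF (2.48% of 15966 genes), IFPS against IF (4.25%) and IFPS against PS (0%). In that order 3, 5 and 2 genes had an unadjusted p under 0.05, beside 2693, 3669 and 3537 of all 15966. DESeq2 called 3 in all: Egr1 (adjusted p = 0.0468) and Dusp1 (0.0247) for IFPS against IF and Dusp1 (0.0427) for IFPS against PS. The shares above are edgeR's, and DESeq2's share of all genes called is not given for tumors. In IFPS tumors Dusp1 was at 405 CPM in tumor 6 (group median 19.3), and Egr1 at 698 in tumor 8 (median 158). Fos, Egr1 and Junb were higher in PS than in IF tumors by 1.27 (SE 0.52, adjusted p = 0.204), 1.08 (SE 0.44, adjusted p = 0.206) and 0.72 (SE 0.25, adjusted p = 0.136) on the log2 scale. Without IFPS tumors 6, 8 and 9 these 3 passed (adjusted p = 0.0396, 0.0363 and 0.0171), where 12.6% of all genes were called.

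The genes did not all vary together from tumor to tumor. Over 28 pairs of the 8 genes in the 9 PS tumors and 28 in the 9 IFPS tumors, 1 of 56 correlations of log2 CPM passed an exact permutation test after adjustment: Junb with Dusp1 in PS tumors (Pearson r = 0.934, two-sided exact permutation p = 0.000118, adjusted p = 0.00664, and Spearman rho = 0.967, p = 0.000165, adjusted p = 0.00926). Without the 2 tumors farthest from the median of Junb it was r = 0.836 (n = 7, exact permutation p = 0.0193, adjusted p = 0.356). In IFPS tumors the same pair gave r = 0.0248 (exact permutation p = 0.949, adjusted p = 0.949). The median r of the 28 pairs was 0.42 in PS and 0.259 in IFPS tumors, with a range of -0.797 to 0.934 and of -0.705 to 0.762. For 2 of the 8 genes the identifier of the most alike pattern is given, by the correlation of deviations from the group means over 80 libraries among 17781 other genes, as a description: ENSRNOG00000023546 for Dusp1 (r = 0.876) and ENSRNOG00000058909 for Myc (r = 0.793).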

How the data were processed

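RNA sequencing counts of 80 libraries were analysed. Per the submitters' processing notes, the authors used Trim Galore and STAR 2.5.2b with build Rnor_6.0, and the deposited table holds raw counts per Ensembl gene; the counting tool, annotation and strand setting are not given in the sources used here, so reads shared with overlapping or antisense genes cannot be told apart. The symbols of the 8 genes came with the list: the table holds identifiers only, 0 of which matched a symbol in the RefSeq table at hand, so a list of other pathway genes and named cell markers were not analysed here. The genes and lists were chosen with earlier results of these data known. Columns of other samples: 0.

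Counts were tested with edgeR 4.0.16 in R 4.3.3 (quasi-likelihood, TMM, filterByExpr, Benjamini-Hochberg over all genes of the fit, threshold 0.05), 1 fit per normal tissue, with the pad set as a covariate in pads. SE is the log2 fold change over the square root of F. CPM used TMM over all 80 libraries, and log2 CPM a prior count of 2. DESeq2 1.42.0 was an alternative. Its share of all genes called is given for IFPS fibroblasts only, so its other counts of calls have no background beside them. The 166 pairs of libraries of 1 group differed beyond sampling noise (smallest chi-square per degree of freedom 8.7). Pairing by title number was examined by correlating deviations from group means. The correlation was over 0.1 for 11 of 12 pairs of MECs and fibroblasts (3 of 3 in wildtype). In the other 5 combinations of tissues it was over 0.1 for 0 to 3 of 12. Numbers were not taken as pairs in the main fits, although most pairs of MECs and fibroblasts passed this cut. Blocked values are given for most of the calls that the block changes. The fits were tested on simulated data. Alternatives were RLE size factors, plain totals, no low-count filter, DESeq2, only the groups compared, either pad set, all 6 wildtype pads, a replicate block and leaving out each library. All 8 genes are named, as the rule set.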

Additional observations from a re-analysis of the deposited data

Results flagged for a closer look

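Dixon's test was run on CPM without a log, in the 48 combinations of a gene and a group of 4 to 10 libraries. Its rate of about 1 in 20 by chance holds for normally distributed values, which CPM need not be. In 9 of the 48 combinations, 1 library lay far above the others of its group. They were Fos in IFPS tumor 6 (169 CPM), Egr1 in PS pad 3 (429) and IFPS tumor 8 (698), Dusp1 in IFPS pad 6 (151), PS pad 1 (177) and IFPS tumor 6 (405), Atf3 in PS pad 3 (19.1) and IF tumor 1 (19.2), and Fosl1 in PS tumor 9 (2.74). PS pad 3 was thus high in both Egr1 and Atf3, and IFPS tumor 6 in both Fos and Dusp1.

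The effect of a line differed between the 4 normal tissues for these genes, by edgeR's test of the interaction. For IF the adjusted p was 3.54e-10 for Fos, 1.01e-08 for Junb, 9.6e-08 for Egr1, 3.48e-07 for Jun, 2.89e-05 for Atf3, 5.23e-05 for Dusp1 and 0.00199 for Myc. For PS it was 4.06e-06 for Fos, 4.06e-06 for Junb, 1.47e-05 for Egr1, 0.00037 for Atf3, 0.000676 for Myc, 0.0468 for Fosl1 and 0.0493 for Dusp1. For IFPS it was 0.000725 for Fos, 0.00419 for Egr1, 0.0454 for Junb and 0.0478 for Atf3, the last 2 of which did not pass with the title number as a replicate block (0.0557 and 0.0524).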

How the results depend on the processing

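None of the 101 called log2 differences changed sign under any alternative run. Of the 212 that were not called, 69 changed sign under at least 1 alternative, and 0 of these reversed values passed. The counts of calls that moved by over 1.5 times were these. In MECs, lines against wildtype gave 3 calls, and 0 with only the groups compared in the fit; between mutated lines they gave 2, and 5 by DESeq2, 1 without the low-count filter and 1 with only the groups compared. In pads DESeq2 gave 1 call against 0. Within single comparisons, IFPS fibroblasts against wildtype gave 2 calls, 5 by DESeq2 and 0 with only the groups compared. PS against IF fibroblasts gave 1, and 2 with only the groups compared (Fos, adjusted p = 0.0306). IF tumors against pads gave 1, and 2 with only the groups compared (Junb, 0.0465). IFPS against wildtype MECs gave 0, and 1 with plain totals (Junb, 0.0284). The IFPS effect between tissues gave 4, and 2 without the low-count filter or with the replicate block. Wildtype MECs against fibroblasts gave 5, and 3 with all 6 wildtype pads in the fit. Tumors against pads gave 7 calls, and 3 with first-set pads. With second-set pads, which IF does not have, PS and IFPS gave 3. Between tumors there were 0 calls, 3 by DESeq2, 1 with only the groups compared and 3 without IFPS tumors 6, 8 and 9. The tumor correlations gave 1 call, and 0 without the 2 farthest tumors. Without IF adipocytes in the fit, a choice made after seeing the data, as were plain totals and leaving out 3 tumors, the other adipocyte comparisons gave 0 calls, as before.

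Leaving out 1 library at a time gave 0 to 5 calls in MECs against wildtype (main 3) and 0 to 3 between mutated MECs (2), 5 to 7 (6) and 10 to 11 (11) in adipocytes, 15 to 18 (17) and 12 to 15 (15) in fibroblasts, 0 in pads, 2 for the pad sets, 5 to 8 (7) for tumors against pads, 0 for the tumor effect, 0 to 1 between tumors, 35 to 39 (38) between wildtype tissues and 14 to 18 (18) for the line effect between tissues. The replicate block on title numbers gave 39 calls between wildtype tissues and 18 for the line effect; it added Jun in PS (adjusted p = 0.000576) and Fosl1 in IF (0.0462) and dropped Junb (0.0557) and Atf3 (0.0524) in IFPS. Plain totals moved 63 of 152 group means by more than 1 SD. Depth limits Fosl1 in pads and tumors.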
